A study of Mus musculus with 2 samples.

Results

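The cells described here are the 500 non-pluripotent cells with the highest level of a myofibroblast gene score, among 6466 non-pluripotent cells and 7023 cells in all. They came from mouse embryonic fibroblasts (MEFs) carrying STEMCCA, a doxycycline-inducible polycistronic cassette of Pou5f1, Klf4, Sox2 and Myc. The cultures were kept in serum-containing embryonic stem cell medium with LIF, doxycycline and ascorbic acid, and the unsorted cells were profiled at day 16 by droplet 3' single-cell RNA-seq (10X Genomics) in 2 libraries. Both libraries carry the same labels and form 1 group, so every comparison was made between cells of the same treated cultures. The study describes a pair of independent STEMCCA mouse systems, but nothing in the labels ties a library to a system, or gives strain, sex or age, so library and mouse system cannot be told apart.

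Myofibroblasts are fibroblasts that assemble contractile actin bundles containing smooth muscle actin and deposit collagen and elastic fibres, as in wound healing and fibrosis. Transforming growth factor beta (TGF-beta), released from latent complexes in the matrix by pulling integrins, is the best known inducer, and serum response factor (SRF) with its actin-sensing coactivators (MRTF) switches on the contractile genes through CArG boxes in their promoters. Cultured MEFs exposed to serum on stiff plastic are well known to take on such features, and reprogramming requires fibroblasts to give up the mesenchymal state.

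The score used 6 genes. Mylk encodes the kinase that phosphorylates myosin light chains (chr16:34745210-35002420), Col8a1 a chain of the network-forming collagen VIII (chr16:57624258-57754737), and Igfbp7 a secreted insulin-like growth factor binding protein (chr5:77349240-77408041). Thbs1 encodes thrombospondin 1, which can release TGF-beta from its latent form (chr2:118111876-118127133), Itga11 the collagen-binding integrin alpha 11 (chr9:62677826-62783982), and Mfap5 a glycoprotein of elastic microfibrils (chr6:122505845-122529290; all coordinates in GRCm38). The deposited value of each gene was turned into a z-score over all cells and the 6 z-scores were averaged. Cells with 3 or more of Utf1, Tdgf1, Tdh, Nanog and Dppa4 above 0 were set aside as pluripotent (557 cells, 160 in replicate 1 and 397 in replicate 2), and the 500 highest of the remaining cells were taken from both libraries together. They are called myofibroblast-like cells below, and the 5966 cells left over are called the other non-pluripotent cells.

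The cut fell on a continuum. The highest score was 3.97 and the median of the chosen cells 1.98, the lowest chosen cell scored 1.422 and the next cell 1.419, and the median of the other non-pluripotent cells was -0.36. Within 0.1 of the cut lay 115 cells, 47 of them chosen. All 500 chosen cells had at least 4 of the 6 score genes above 0.

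The values below are levels, the mean over cells of unique molecular identifiers (UMIs) per 10000 UMIs of a cell. These chose the cells and are given as a description. Mylk was 3.96 in the myofibroblast-like cells of replicate 1 and 2.11 in those of replicate 2, against 0.154 and 0.0595 in the other non-pluripotent cells. Thbs1 was 21.7 and 20.2 against 2.14 and 1.57, and Itga11 was 2.31 and 2.18 against 0.173 and 0.107. The kinase gene was thus the score gene that differed most between the libraries, while the matrix receptor was nearly equal in them. Col8a1 (9.18 and 8.95), Igfbp7 (15.0 and 14.8) and Mfap5 (3.74 and 3.66) were also close between the libraries. None of the 6 passed 0.19 in the pluripotent cells, which shared the droplets' free RNA and had the deeper profiles (median 28354 and 26097 UMIs a cell, against 14955 and 12649 in the myofibroblast-like cells).

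All 6 genes were above 0 together in 49.1% of the myofibroblast-like cells of replicate 1 and 38.3% of replicate 2, and in 1.18% and 0.45% of the other non-pluripotent cells. With every cell thinned to 3000 UMIs, 72.8% and 65.6% of the chosen cells still had 4 or more of them. That share was 3.65% and 2.07% in the other non-pluripotent cells, and 0.625% and 0% in the pluripotent cells, where 0 of 397 cells allows a share of up to 0.756% by counting error alone.

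To describe how the genes went together, each was left out in turn and 500 cells were chosen by the other 5 (84.6 to 94.4% of them were among the original 500). Mylk, held out, was 3.37 in the cells so chosen and 0.243 in the remaining non-pluripotent cells of replicate 1, and 1.34 and 0.0962 in replicate 2, a ratio of 13.9 in each library. Itga11 was 7.87 and 11 times as high, Thbs1 8.24 and 9.81 times, and Col8a1 6.12 and 10.1 times. Mfap5 (5.61 and 7.96 times) and Igfbp7 (4.92 and 6.24 times) showed the smaller ratios. Since the 6 genes were put together as markers of these cells and most of the cells were the same, these ratios are a description and no test.

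**Figure D1:**
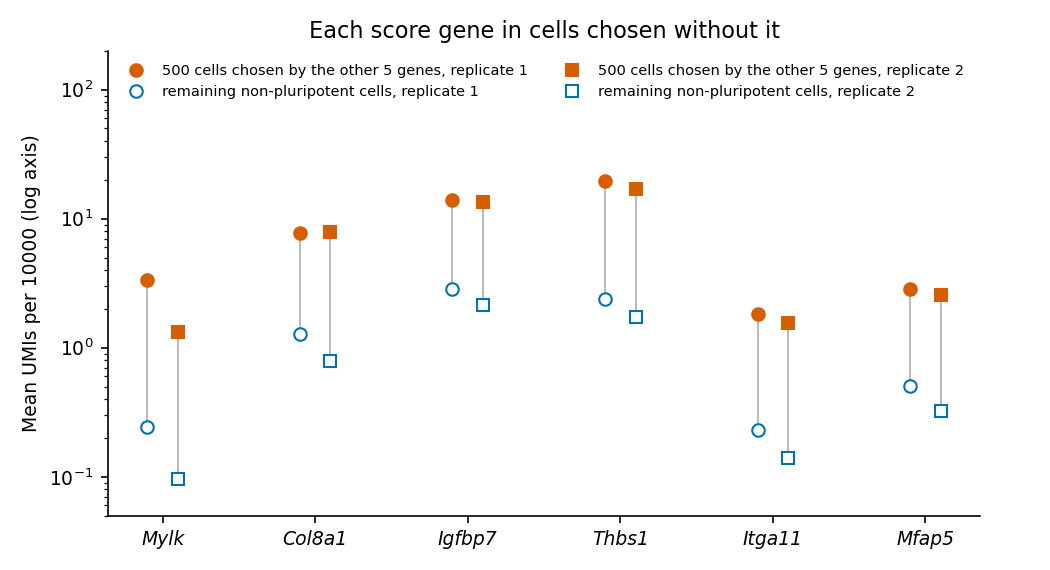
Mean UMIs per 10000 (log axis) of each score gene in the 500 cells chosen by the other 5 genes (filled) and in the remaining non-pluripotent cells (open), by library (circles replicate 1, squares replicate 2). Each filled symbol lies above its open partner, from 4.92 times (Igfbp7, replicate 1) to 13.9 times (Mylk).

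The myofibroblast-like cells were unevenly spread over the libraries: 320 of 2949 non-pluripotent cells in replicate 1 (10.9%, exact 95% interval 9.75 to 12.0%) and 180 of 3517 in replicate 2 (5.12%, 4.41 to 5.90%), a mean of 7.98% ± 4.05 (SD, n = 2). The intervals cover counting error only. When the z-scores were taken within each library, which evens out the libraries by construction, the shares became 7.56% and 7.88%.

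Depth differed little between the sets. Median UMIs a cell were 14955 and 12649 in the myofibroblast-like cells (replicates 1 and 2), and 15238 and 13692 in the other non-pluripotent cells. Cells above 2 times the median UMIs of their library made up 2.19% and 2.78% of the chosen cells against 6.39% and 6.47% of the others, and 12 barcodes occurred in both libraries, 2 of them on chosen cells. UMIs of ribosomal protein genes took 28.8% and 31.7% of the total in the myofibroblast-like cells against 38.6% and 41.4%, a gap that raises the other genes' level per 10000. Xist without any Y-linked UMI was seen in 49.7% and 45.0% of the chosen cells and 45.8% and 46.0% of the others, so cells with and without Y-linked UMIs were present in each set. At least 2 Y-linked UMIs were seen in 23.4% and 25.0% of the chosen cells and in 21.3% and 20.3% of the others.

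Against the other non-pluripotent cells, 7080 genes outside the score and the pluripotency genes were tested by limma on 4 profiles (each set in each library), with differences on the log2(level + 0.1) scale. Called higher in the myofibroblast-like cells were 917 genes (13.0%) and called lower 483 (6.82%), at a Benjamini-Hochberg adjusted p below 0.05 and at least 1.5-fold. The median difference over all genes tested was 0.04. The largest differences on the higher side were genes of collagen and its cross-linking (Col12a1, Col1a1, Lox, Col5a2, Col5a1), elastin, the TGF-beta binding protein Ltbp2 and the serine protease Prss23, and the lower side was led by Crym, Pcsk1n and Aldh3a1. Because the cells were chosen by genes measured in the same cells, these calls describe the chosen cells and are not independent evidence of a separate cell type. Every gene with at least a 1.5-fold difference passed the p threshold, so the fold alone set the calls. Per 10000 UMIs outside ribosomal protein genes, 687 genes were higher and 1033 lower, and all genes shifted by -0.17 at the median. Relative to the median gene the counts were 633 and 767, and the shift was -0.13. The share of calls on the higher side was thus 65.5% as deposited, 39.9% without ribosomal protein genes and 45.2% relative to the median gene.

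**Figure D2:**
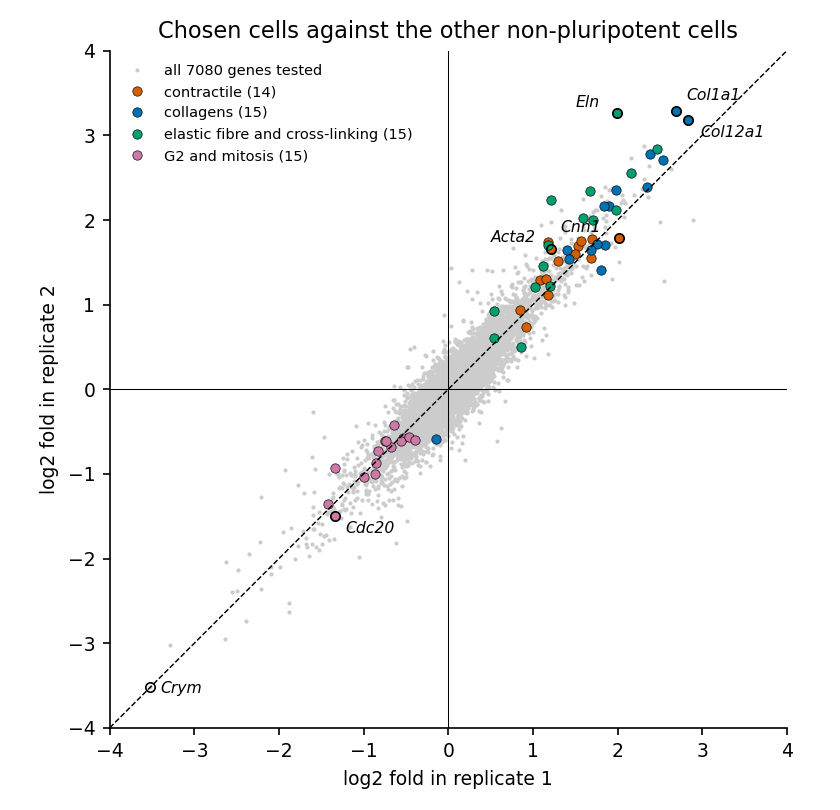
Difference between the myofibroblast-like and the other non-pluripotent cells in replicate 1 (x axis) and replicate 2 (y axis), in log2 units, for the 7080 genes tested (grey) and 4 gene lists (coloured). Contractile, collagen and elastic fibre genes lie to the upper right, up to 3.003 for Col12a1 over both libraries, the genes of G2 and mitosis to the lower left, and Crym at -3.52.

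Contractile genes that took no part in the score were higher throughout: 14 of 14 tested, with a median log2 difference of 1.45 (0.82 to 1.90). The score held Mylk, a gene of the same apparatus, and the list was chosen with earlier results of these data known. These values therefore describe the name myofibroblast-like and do not test it. Acta2, smooth muscle actin and the usual mark of a myofibroblast, was 38.1 and 33.2 in replicates 1 and 2 of the myofibroblast-like cells and 16.4 and 10.4 in the other non-pluripotent cells, a log2 difference of 1.44 ± 0.067 (SE of limma, 4 profiles). Both chosen sets lay above both comparison sets, but single cells overlapped widely. The median over cells was 31.7 and 24.1 against 8.43 and 3.59, and the highest cell reached 190.1 and 197.4 against 198.4 and 147.6. Acta2 UMIs were seen in 93.9% and 85.0% of the other non-pluripotent cells, and in 88.1% and 67.0% of the deeper pluripotent cells at a level near 1 (1.02 and 0.859). At full depth the share of cells with a UMI thus separates the sets poorly and the level does so better. With every cell thinned to 3000 UMIs the share was 96.6% and 91.7% in the myofibroblast-like cells. It was then 75.7% and 61.3% in the other non-pluripotent cells and 22.5% and 16.9% in the pluripotent cells.

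Tagln, the actin-binding transgelin, was 14.7 and 14.1 against 6.41 and 4.12 (1.47 ± 0.083). Cnn1, calponin 1, a thin-filament protein restricted to contractile cells, was 0.866 and 0.423 against 0.139 and 0.0518 (1.90 ± 0.099). Myl9, the regulatory light chain that Mylk phosphorylates, was 6.78 and 4.88 against 2.28 and 1.44 (1.61 ± 0.069). So the kinase of the score, its substrate and the thin-filament genes were all higher in both libraries, and Cnn1, like Mylk, was higher in replicate 1 than in replicate 2. The tropomyosins Tpm2 (1.74) and Tpm1 (1.15), the actin cross-linkers Flna (1.66) and Actn1 (1.55), and leiomodin Lmod1 (1.61) were higher as well. Enteric smooth muscle actin Actg2 (0.89) and Csrp1 (0.82), a LIM protein of actin bundles, were the smallest differences of the list.

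CArG boxes were looked for by name in the 250 bases before the start of the contractile genes (RefSeq, build GRCm38.p6, both strands, 10 bases). Only exact matches were counted: CC, then A or T throughout, then GG. They are printed because SRF is the best known common factor of contractile genes. The list was made of such genes, and the part of SRF in these cells was not tested. Of the 14 listed genes 12 had a window, and 3 of these 12 (25.0%) held a box: calponin 2, Myl9 and the essential light chain Myl6. A window counted as without a box can still hold near matches, as that of Acta2 did (ccctatatgg and ccttgtttgg). A box was found for 439 of 27025 genes in all (1.62%), for 82 of 5475 tested genes with a window (1.5%) and for 19 of 687 called higher (2.77%). The windows below run 5′ to 3′ on the gene's strand, with the box in capitals, 56, 161 and 50 bases before the start site in Cnn2, Myl9 and Myl6. Cnn2 lies at chr10:79988350-79988599 (plus strand), Myl9 at chr2:156775214-156775463 (plus strand) and Myl6 at chr10:128493010-128493259 (minus strand). Myl6 has another window, at chr10:128493887-128494136, that held no box, and a gene was counted when any of its windows held one.
Cnn2: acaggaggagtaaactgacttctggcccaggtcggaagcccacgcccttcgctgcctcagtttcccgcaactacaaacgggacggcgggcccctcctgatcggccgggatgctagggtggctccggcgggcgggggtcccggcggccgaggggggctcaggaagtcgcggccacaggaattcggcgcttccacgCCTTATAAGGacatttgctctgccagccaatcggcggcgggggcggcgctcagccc
Myl9: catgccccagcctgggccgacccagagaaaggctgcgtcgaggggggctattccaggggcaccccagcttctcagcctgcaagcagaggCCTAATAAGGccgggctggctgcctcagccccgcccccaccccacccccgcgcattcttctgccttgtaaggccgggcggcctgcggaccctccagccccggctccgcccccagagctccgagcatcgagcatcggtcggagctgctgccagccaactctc
Myl6: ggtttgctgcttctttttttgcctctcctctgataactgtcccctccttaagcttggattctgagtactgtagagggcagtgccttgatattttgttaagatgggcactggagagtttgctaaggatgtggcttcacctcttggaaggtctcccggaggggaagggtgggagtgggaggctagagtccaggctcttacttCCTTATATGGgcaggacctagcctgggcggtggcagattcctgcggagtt
A match is a description of letters only. Cnn2 was 6.24 and 5.41 against 2.48 and 1.83 (1.40), and Myl6 was 15.9 and 13.3 against 7.10 and 5.33 (1.23). Tagln and Actg2, also on the list, had no window and were not searched.

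Of 13 tested genes of the SRF and MRTF list outside the contractile list, 12 were higher and none lower, with a median of 1.21. Fhl2, a LIM cofactor of SRF target genes, was 2.36 and 2.27 against 0.494 and 0.384 (2.17). Zyx and Vcl, zyxin and vinculin of focal adhesions, differed by 1.44 and 1.23. Actb, the cytoplasmic beta actin, differed by 1.10. Mkl2, which encodes a MRTF, was 0.224 and 0.212 against 0.177 and 0.168 (0.22, not called), and Srf itself (0.185 and 0.126 against 0.0799 and 0.0614) was under the filter of 0.1 and not tested. Mkl1, the other MRTF gene (0.155 and 0.138 against 0.0668 and 0.0448), was not tested either.

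Among focal adhesion genes 10 of 15 were higher and none lower (median 0.72), led by Lpp (1.61), Tns1 (1.37) and palladin, Palld (1.34). Fermt2, kindlin 2, differed by only 0.19 and Lims1 by 0.42, neither called. Of 6 integrin genes tested, 4 were higher: Itga5 (1.45), which pairs with Itgb1 (1.26) as the fibronectin receptor, and Itgav (1.05) with Itgb5 (0.70), a pair that can release latent TGF-beta. Itgb4, the hemidesmosome subunit of epithelial cells, was lower, 0.183 and 0.190 against 0.628 and 0.662 (-1.38). Itgb3 (0.277 in each library against 0.0777 and 0.0695) and Itga8 (0.0652 and 0.0724 against 0.00476 and 0.00161) were under the filter and were not tested. In this comparison the integrins that were higher were therefore those that bind fibronectin and vitronectin, beside the collagen receptor of the score.

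The TGF-beta list was mixed in its parts: 16 of 23 genes tested were higher, 1 lower and 6 not called, with a median of 0.76. Fewer were higher against some of the comparison groups described below. Among the ligands, Tgfb3 was 0.992 and 0.744 against 0.187 and 0.155 (1.83), while Tgfb1 (0.94) and Tgfb2 (0.64) differed less. Inhba, the activin A subunit, was 0.621 and 0.512 against 0.164 and 0.0843 (1.59), and Fst, follistatin, which binds activin, was 0.746 and 0.439 against 0.109 and 0.0899 (1.76). Ligands and an inhibitor were thus higher side by side. Ltbp2, a latent TGF-beta binding protein of microfibrils, was 1.58 and 1.71 against 0.223 and 0.192 (2.51), and Ltbp1 and Ltbp3 differed by 0.76 and 0.75.

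Of the receptors, Tgfbr1 (0.76) and the coreceptor Tgfbr3 (0.94) were called higher and Tgfbr2 was not (0.53). Pmepa1, a target that dampens the pathway, differed by 1.72 and Ctgf by 1.13. Smad7, the inhibitory SMAD, was 0.266 and 0.339 against 0.172 and 0.170 (0.56, not called). Tgfbi, a matrix protein named for its induction by TGF-beta, was lower: 1.52 and 1.61 against 2.81 and 2.53 (-0.74). The targets therefore did not move as a block. Of 15 genes tested on the YAP and TEAD list 7 were higher and 1 lower (median 0.40). Ankrd1 was 1.201 and 1.115 against 0.245 and 0.136 (2.14) and Amotl2 differed by 1.55, but Cyr61 did so by only 0.40 and Yap1 by 0.31, neither called.

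Collagens made up the largest differences, with 14 of 15 tested higher and a median of 2.01. Col1a1, the main chain of type I collagen, was 29.7 and 25.4 against 4.52 and 2.50 (2.99 ± 0.085). Col12a1, a collagen that decorates type I fibrils, was 2.92 and 3.81 against 0.326 and 0.332 (3.003 ± 0.089). Col5a2 (2.62), Col5a1 (2.58), Col3a1 (2.37) and Col1a2 (2.17) followed, and the type VI chains were between 1.53 and 1.78. Col12a1 UMIs were seen in 81.9% and 85.6% of the myofibroblast-like cells, in 18.6% and 18.9% of the other non-pluripotent cells and in 8.12% and 5.79% of the pluripotent cells. The network-forming Col4a1 (1.74) and Col4a2 (1.67) and the fibril-associated Col16a1 (1.49) were also higher, and Col18a1, a basement membrane collagen, was not called (-0.37).

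Elastic fibre and cross-linking genes were higher in 14 of 15 cases (median 1.72). Lox, the lysyl oxidase that cross-links collagen and elastin, was 7.16 and 7.02 against 1.21 and 0.896 (2.65 ± 0.08). Its relatives Loxl2 (2.36), Loxl1 (2.05) and Loxl3 (1.81) were higher too, as were fibrillin 1, Fbn1 (1.85), and fibulin 2, Fbln2 (2.01). Eln, elastin, was 1.68 and 1.96 against 0.347 and 0.114 (2.63 ± 0.163), but it was carried by few cells: 21.2% and 21.7% of the chosen cells had a UMI, and the highest cell reached 76.6 and 53.6. Its difference was 2.00 in replicate 1 and 3.26 in replicate 2, the widest spread between libraries among the genes with the 20 largest differences. Efemp1, fibulin 3, was not called (0.57).

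Matricellular genes were higher in 10 of 11 cases (median 1.93). Postn, periostin, was 1.5 and 0.621 against 0.116 and 0.0802 (2.45 ± 0.134). Tnc, tenascin C, was 3.29 and 3.499 against 0.657 and 0.444 (2.45), and Thbs2 was 2.84 in each library against 0.729 and 0.621 (1.93). Thbs3, another thrombospondin, was lower: 0.118 and 0.112 against 0.468 and 0.448 (-1.38), so the family was split. Fibronectin, Fn1, differed by 1.69 and Sparc by 1.93. Aspn, asporin, differed by 2.38 and the CCN protein Wisp2 by 2.25. All 5 proteoglycans tested were higher, from 0.87 (Prelp) to 1.39 (Ogn).

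Among other secreted proteins, Igfbp2 was 5.57 and 4.58 against 1.26 and 0.897 (2.15), and 6 of 8 genes of the insulin-like growth factor list were higher. The chemokine Cxcl12 was 3.23 and 2.90 against 0.538 and 0.345 (2.57), and Prss23 6.17 and 6.99 against 1.16 and 0.863 (2.60). Cthrc1 (2.34), a secreted protein of fibrotic tissue, and Cd248 (2.32), the stromal surface protein endosialin, were also among the 20 largest. Of 11 proteases and inhibitors tested 8 were higher, with Adamts2 (2.32), which trims procollagen, and Adamts5 (2.19) ahead of Timp3 (1.96). Mmp3 (0.40), Mmp11 (-0.02) and Mmp13 (-0.07) were not called. The matrix proteases were therefore split, with the membrane-type Mmp14 (1.06) and the gelatinase Mmp2 (0.83) among those called higher.

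Transcription factors differed less. Of 13 mesenchymal factors tested 6 were higher and none lower (median 0.53): Prrx2 (1.49), Prrx1 (1.31), Ebf1 (1.29), Zeb2 (1.02), Runx1 (0.90) and Runx2 (0.76). Twist1 (0.50), Zeb1 (0.34) and Mef2c (0.42) were not called. Prrx1 and Prrx2, homeobox factors of limb and connective tissue mesenchyme, were 2.84 and 2.77, and 2.12 and 2.22, in the myofibroblast-like cells, against 1.07 and 1.08, and 0.723 and 0.696, in the others.

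The lower side had another character. Crym, the thyroid hormone binding mu-crystallin, was 0.284 and 0.257 in the myofibroblast-like cells and 4.32 and 3.98 in the other non-pluripotent cells (-3.52 ± 0.08), with UMIs in 26.9% and 20% against 79.1% and 76.9%, and 32.5% in the pluripotent cells of each library. The share of chosen cells with a Crym UMI was thus no higher than in the pluripotent cells. Pcsk1n, an inhibitor of prohormone processing, was 0.0275 and 0.0407 against 1.14 and 1.04 (-3.15). The detoxifying enzymes Aldh3a1 (-2.79) and Gsta4 (-2.47) were lower, as were L1td1 (-2.57), an RNA-binding protein known from embryonic stem cells, and Apela (-2.44), a ligand of the apelin receptor. The remaining genes of the 15 largest on this side were Upp1 (-2.33), Wfdc2 (-2.31), Pipox (-2.29), Ramp3 (-2.26), Ccl8 (-2.20), Pllp (-2.09), Urah (-2.05), H2afz (-1.91) and Chchd10 (-1.76). H2afz, the histone variant H2A.Z, was the gene with the highest level among them, 4.86 and 4.17 against 17.2 and 17.1.

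Proliferation genes were lower. Of 15 genes of G2 and mitosis 10 were lower and none higher (median -0.68), and of 13 S phase genes 4 were lower (median -0.51). Top2a was 0.931 and 0.709 against 1.76 and 1.38 (-0.86), and Cdc20, the activator of the anaphase-promoting complex, 0.135 and 0.0801 against 0.496 and 0.409 (-1.42). Per 10000 UMIs outside ribosomal protein genes all 15 genes of G2 and mitosis were lower, but none of 14 was called by limma against the next 1500 non-pluripotent cells by score (median -0.12, with 4 lower at an unadjusted p below 0.05). Cdkn2b, a cyclin-dependent kinase inhibitor induced by TGF-beta, was 1.06 and 1.34 against 0.424 and 0.369 (1.38). Cdkn1a (0.05) and Cdkn2a (0.52) were not called and Trp53 was lower (-0.77), so 1 gene of 10 on the p53 and senescence list was higher, a share near the 13.0% of all genes tested. None of 8 immediate early genes, which respond to cell handling, was called by limma (median 0.26), although 6 were higher at an unadjusted p below 0.05 with differences under 1.5-fold.

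Markers of other cell types fell into lists with a higher and lists with a lower sum than in the other non-pluripotent cells (for a gene at 0 below, 0 of 320 and 0 of 180 cells allow shares of up to 0.938% and 1.67%). Of the mature smooth muscle list, Myh11 was 0.219 and 0.0809 against 0.00825 and 0.00298 and Des 0.158 and 0.298 against 0.0117 and 0.0190, both under the filter and not tested. Myh11 UMIs were seen in 12.8% and 4.44% of the myofibroblast-like cells, 0.875% and 0.33% of the other non-pluripotent cells and in 0 of 160 and 0 of 397 pluripotent cells, which allows shares of up to 1.88% and 0.756%. Smtn (1.24) and Ppp1r14a (1.91), which act on the contractile apparatus, were higher, and the summed level of the 9 listed genes in the table was 2.34 and 1.80 against 0.447 and 0.348.

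Of pericyte genes, the receptor Pdgfrb (1.49), Cspg4 (1.19) and Cox4i2 (0.82) were higher, 3 of 4 tested, but Rgs5 was 0.011 and 0.00281, Kcnj8 0 in both libraries and Abcc9 0.0017 and 0, so the defining channel genes were at or near 0. Other genes of the list were low in all cells and under the filter, yet higher in level here: Rgs4 was 0.146 and 0.0945 against 0.00881 and 0.00416, Notch3 0.103 and 0.1 against 0.0208 and 0.0173, and Mcam 0.0995 and 0.0888 against 0.0176 and 0.0157. The list summed to 5.53 and 7.09 against 2.65 and 3.99. Of the fibroblast list, 7 of 11 were higher and 2 lower. Thy1 was 6.51 and 5.89 against 3.04 and 2.67 (1.10), and the progenitor markers Ly6a (-0.96) and Cd34 (-0.60) were the lower pair. Vim, vimentin, was not called (0.22).

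All 3 epithelial genes tested were lower (Krt18 -1.20, Epcam -0.93, Krt19 -0.59), the list summing to 0.151 and 0.221 against 0.795 and 0.662. Macrophage genes summed to 0.0859 and 0.0698 against 0.353 and 0.713, with Ptprc at 0 and Lyz2 lower (-1.22). Of endothelial genes, Tie1 and Esam were at 0, Pecam1 was 0.00142 and 0 and Tek was not called (0.04). The list summed to 0.661 and 0.860 against 0.271 and 0.277. Flt1, which encodes a VEGF receptor, made up most of this sum and was 0.393 and 0.675 against 0.0157 and 0.0298 (under the filter, not tested), with UMIs in 28.4% and 38.9% of the myofibroblast-like cells against 1.83% and 2.40% of the others. In the pluripotent cells the share with a Flt1 UMI was 2.50% and 3.27%. Sox10 and Gfap were at 0, while Ncam1, a cell adhesion molecule also found on mesenchyme, was 2.85 and 2.90 against 0.748 and 0.516 (2.04) and Stmn2 differed by 0.82, 2 higher of 3 neural genes tested. The neural list summed to 4.03 and 4.21 against 1.496 and 1.115, and the adipocyte list to 1.89 and 1.48 against 0.420 and 0.476. Lpl (2.24) and Fabp4 (0.76) were higher among adipocyte genes while Plin1 was at 0 and Pparg at 0.00985 and 0.0071. Striated muscle genes summed to 0.0562 and 0.00881. The 2 skeletal genes tested, Col2a1 (0.70) and Col10a1 (0.85), were called higher in mean level. Against the next 1500 non-pluripotent cells by score both had the other sign. A UMI of the skeletal list was no more common in the chosen cells (15.6% and 17.8%) than in the others (23.8% and 18.0%). Of the Wnt and BMP list 4 of 6 genes were called higher, among them the Wnt inhibitor Sfrp1 (1.81). The part of any such cells in the results was not tested.

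Of the factors in the cassette, Klf4 was 0.365 and 0.424 against 0.199 and 0.179 (0.77, called higher), Pou5f1 differed by -0.19 and Myc by -0.49, neither called, and Sox2 was under the filter. Klf2 was higher (0.85) and Tfcp2l1 lower (-1.20) among 4 pluripotency genes tested. UMIs of the cassette and of the cells' own genes were not separated.

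The cells were then set beside 3 other groups of 500 non-pluripotent cells of the same libraries. Each was chosen by its own 3 genes, with cells in both groups left out of both. The Mmp11 Dcn Sfrp4 cells shared 75 cells with the myofibroblast-like cells (15.0%), the Spp1 Mmp13 Col10a1 cells 82 (16.4%) and the Pcp4 Ntrk2 Thbd cells 15 (3.0%). The 3 groups fell differently on the libraries, 176 and 324, 266 and 234, and 153 and 347 cells in replicates 1 and 2. By the same limma rule, 457 of 7356 genes were higher (6.21%) and 285 lower (3.87%) than in the Mmp11 Dcn Sfrp4 cells. The counts were 454 (6.16%) and 276 (3.75%) of 7369 against the Spp1 Mmp13 Col10a1 cells, and 1138 (15.7%) and 377 (5.19%) of 7261 against the Pcp4 Ntrk2 Thbd cells. Without ribosomal protein genes the share of calls on the higher side moved from 61.6 to 50.4%, from 62.2 to 55.4% and from 75.1 to 48.5%. The 3 comparisons share the myofibroblast-like cells and so are not independent of each other.

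The contractile list was higher in full, 14 of 14, in each of the 3 comparisons, with medians of 1.61, 1.68 and 2.25 beside 0.01, 0.04 and 0.10 over all genes tested. Acta2 was 13.5 and 6.43 in the Mmp11 Dcn Sfrp4 cells (1.97 ± 0.14), 6.46 and 4.99 in the Spp1 Mmp13 Col10a1 cells (2.74 ± 0.068) and 7.62 and 5.76 in the Pcp4 Ntrk2 Thbd cells (2.43 ± 0.073). Cnn1 was at or under 0.0642 in all 3 groups, with differences of 2.33, 2.24 and 2.56. In both libraries Acta2 was below its level in the other non-pluripotent cells (16.4 and 10.4) in each of the 3 groups, so these gaps were wider than that of the main comparison.

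**Figure D3:**
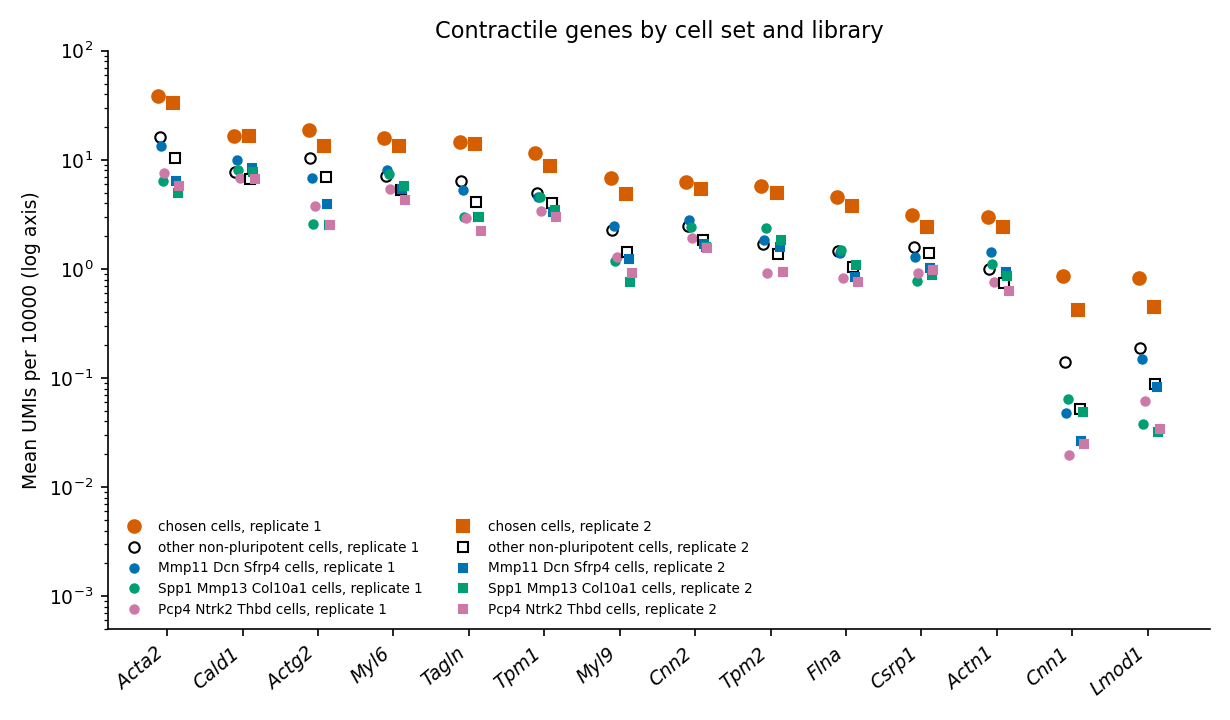
Mean UMIs per 10000 (log axis) of the 14 contractile genes in the myofibroblast-like cells, the other non-pluripotent cells and the 3 comparison groups, by library (circles replicate 1, squares replicate 2). For each gene the orange symbols of the myofibroblast-like cells are the highest of their library, Acta2 at 38.1 and 33.2.

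Matrix genes separated the groups less evenly, the collagens in the size of the difference more than in the number called. Col1a1 was 9.19 and 5.75 in the Mmp11 Dcn Sfrp4 cells (difference 2.00), 16.8 and 8.61 in the Spp1 Mmp13 Col10a1 cells (1.13) and 3.56 and 2.26 in the Pcp4 Ntrk2 Thbd cells (3.23). Collagens were higher in 15 of 16, 13 of 17 and 15 of 16 cases in the same order (1, 1 and 0 lower). Their medians were 0.98, 0.84 and 2.01. Matricellular genes were higher in 6 of 13, 8 of 12 and 12 of 13 (1, 0 and 1 lower). Elastic fibre genes were higher in 7, 10 and 14 of 15 cases. SRF and MRTF genes were higher in 12 of 15, 13 of 15 and 13 of 14. TGF-beta genes were higher in 8 of 24, 5 of 25 and 16 of 24, and lower in 2, 4 and 1. Mesenchymal factors were higher in 5 of 18, 3 of 18 and 8 of 16 (0, 2 and 1 lower). Insulin-like growth factor list genes were higher in 1, 2 and 4 of 9 (0, 3 and 0 lower). Integrins were higher in 4, 2 and 5 of 7 (0, 2 and 1 lower). Pericyte genes were higher in 1, 0 and 3 of 4 (1, 1 and 0 lower). Immediate early genes were called lower in 5, 0 and 1 of 8 and higher in none, with medians of -0.68, -0.24 and -0.04. Eln in the Spp1 Mmp13 Col10a1 cells was 2.46 in replicate 1, above the 1.503 of the myofibroblast-like cells, and 0.318 in replicate 2, below their 2.05, so its call (0.84) joined libraries of opposite direction. Bgn, biglycan, and Ogn, osteoglycin, were called against the Pcp4 Ntrk2 Thbd cells (0.72 and 0.98) and not against the other groups (0.34 and 0.19, then 0.30 and -0.08).

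Single genes marked each contrast. Igfbp2 was 0.747 and 0.578 in the Mmp11 Dcn Sfrp4 cells (difference 2.91), 0.477 and 0.995 in the Spp1 Mmp13 Col10a1 cells (2.82) and 0.796 and 0.842 in the Pcp4 Ntrk2 Thbd cells (2.51). Ankrd1 differed by 2.40, 3.06 and 2.96, and Tnc by 2.15, 1.89 and 2.17. Tgfbi was higher in each comparison group than in the myofibroblast-like cells (-1.31, -1.22 and -1.40), as was Gadd45a, a stress gene of growth arrest (-1.88, -2.04 and -0.71). The largest gaps on the lower side were Ccl8 (-3.46) and Chchd10 (-3.13) against the Mmp11 Dcn Sfrp4 cells, Mmp3 (-4.77) and Lyz2 (-3.91) against the Spp1 Mmp13 Col10a1 cells and Crym (-3.64) against the Pcp4 Ntrk2 Thbd cells. All 6 macrophage genes tested were lower than in the Spp1 Mmp13 Col10a1 cells (median -2.58), a measure of macrophage UMIs in that comparison group. Genes of G2 and mitosis were higher in 6 of 7 cases against the Mmp11 Dcn Sfrp4 cells, in 0 of 11 against the Spp1 Mmp13 Col10a1 cells (limma, 3 higher at an unadjusted p below 0.05) and lower in 3 of 14 against the Pcp4 Ntrk2 Thbd cells. The direction of the mitotic genes thus depended on which non-pluripotent cells stood on the other side.

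Ordered by score, the lists changed step by step across the cut. The contractile genes summed to 172.1 per 10000 in the highest 250 cells as found in replicate 1, 117.4 in the remaining chosen cells, 109.2 and 90.6 in each further 250 cells, 87.3 in the next 1000 and 51.2 beyond rank 2000. In replicate 2 the sums were 146.5, 106.8, 92.9, 79.9, 65.6 and 38.8. The step within the chosen cells was larger than that at rank 500 in both libraries. Collagens went from 143.8 to 13.9 in replicate 1 and from 126.3 to 11.5 in replicate 2 over the same ranks, and elastic fibre genes from 36.9 to 5.36 and from 42.1 to 5.29. Genes of G2 and mitosis were 2.88 and 3.43 in the highest 250 cells, 5.39 and 3.42 in the remaining chosen cells and 10.45 and 8.08 in the cells beyond rank 2000, with no order between.

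**Figure D4:**
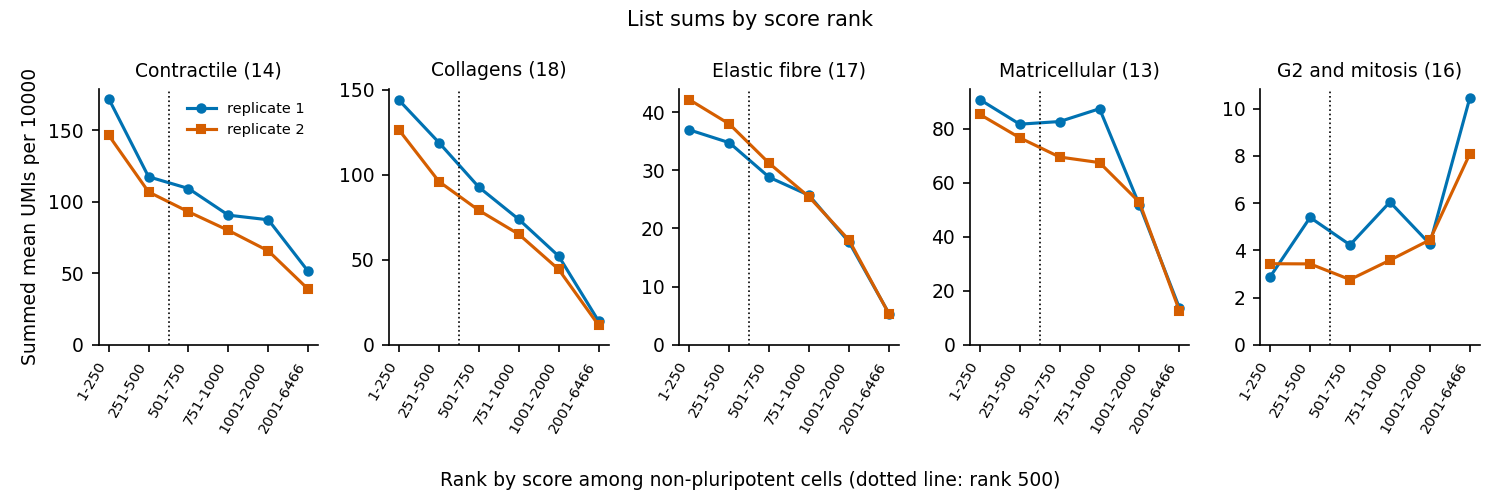
Summed mean UMIs per 10000 of 5 gene lists by rank of the score among the 6466 non-pluripotent cells (dotted line, rank 500), by library. The contractile, collagen and elastic fibre sums decline through rank 500 without a break, from 172.1 to 51.2 for the contractile genes of replicate 1, and genes of G2 and mitosis are highest in the cells beyond rank 2000.

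Within the myofibroblast-like cells, the collagen and elastic fibre sums varied together more than either did with the contractile sum. Over the 320 cells of replicate 1 and the 180 of replicate 2, Spearman's rho between the contractile and collagen sums was -0.08 and 0.12, between the contractile and elastic fibre sums -0.04 and 0.05, and between the collagen and elastic fibre sums 0.49 and 0.50. The cells of 1 library share depth and free RNA, and these values are a description. The sum of the contractile genes ranged over cells from 19.6 to 546.9 in replicate 1 and from 17.1 to 532.5 in replicate 2, and that of the collagens from 27.0 to 373.8 and from 15.7 to 426.8.

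Clusters of all cells, made without the score and the pluripotency genes, placed the 500 cells in 8 of 17 clusters. Cluster 11, of 271 cells (180 of 3109 in replicate 1 and 91 of 3914 in replicate 2), held 209 of them (41.8%, which was 45.3% of the chosen cells of replicate 1 and 35.6% of replicate 2), and 77.1% of its cells were chosen cells. Among its leading genes were Sprr2k, Prss23, Col15a1, Col1a1, Cd248, Lpl, Postn, Col5a1 and Cnn1. The rest lay mainly in cluster 0 (101 cells, led by Rarres2 and Rgcc), cluster 4 (60, led by Smoc2, Pcp4 and Aspn), cluster 9 (56, led by Spp1, Mmp3 and Col10a1), cluster 10 (46, led by 2810417H13Rik and Rrm2) and cluster 7 (21, led by Mmp11). The score therefore joined cells that whole profiles put in several groups, and these clusters are not named here.

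The chosen cells of those clusters differed in kind. Since the clusters were made from these genes among others, the values describe them and test nothing. Contractile genes summed to 186.3 and 169.7 in cluster 11, 132.3 and 132.4 in cluster 4, 118.8 and 110.0 in cluster 0 and 85.9 and 71.7 in cluster 9. Collagens summed to 168.3 and 133.4 in cluster 4, above the 135.0 and 129.6 of cluster 11 in both libraries. In cluster 9 (38 and 18 chosen cells) they were 169.1 and 114.2, above cluster 11 in replicate 1 and below it in replicate 2. In cluster 0 they were 92.4 and 68.8. Matricellular genes summed to 143.9 and 147.9 in cluster 9, where Spp1 was 57.0 and 75.1. The chosen cells of cluster 10, only 33 and 13 in replicates 1 and 2, carried the mitotic signal. Their genes of G2 and mitosis summed to 24.8 and 32.4, against 1.04 and 0.976 in cluster 11. The sums were 8.71 and 7.32 in the other non-pluripotent cells outside cluster 11. The contractile sum of the chosen cells of cluster 10 was still 135.3 and 106.0.

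Mylk and the smooth muscle genes also varied between clusters. Mylk was 6.04 and 3.45 in the chosen cells of cluster 11, 4.31 and 4.12 in those of cluster 10, 0.766 and 0.151 in those of cluster 4, and 0.145 and 0.0555 in the other non-pluripotent cells outside cluster 11. Cnn1 was 1.35 and 0.874 in the chosen cells of cluster 11 and 0.465 and 0.174 in those of the other clusters together, among which it reached 0.880 and 0.584 in cluster 10 and 1.05 and 0.214 in cluster 4. Myh11 was 0.413 and 0.212 against 0.0582 and 0.00884. Thbs1, in contrast, was 37.4 and 32.5 in the chosen cells of cluster 4 and 26.1 and 22.4 in those of cluster 11. The 62 cells of cluster 11 that the score did not choose (35 and 27) had a median score of 1.07 and 1.21, contractile sums of 131.9 and 108.6 and Mylk levels of 0.765 and 0.549. The Myh11 found above was thus mostly in the cells of cluster 11.

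**Figure D5:**
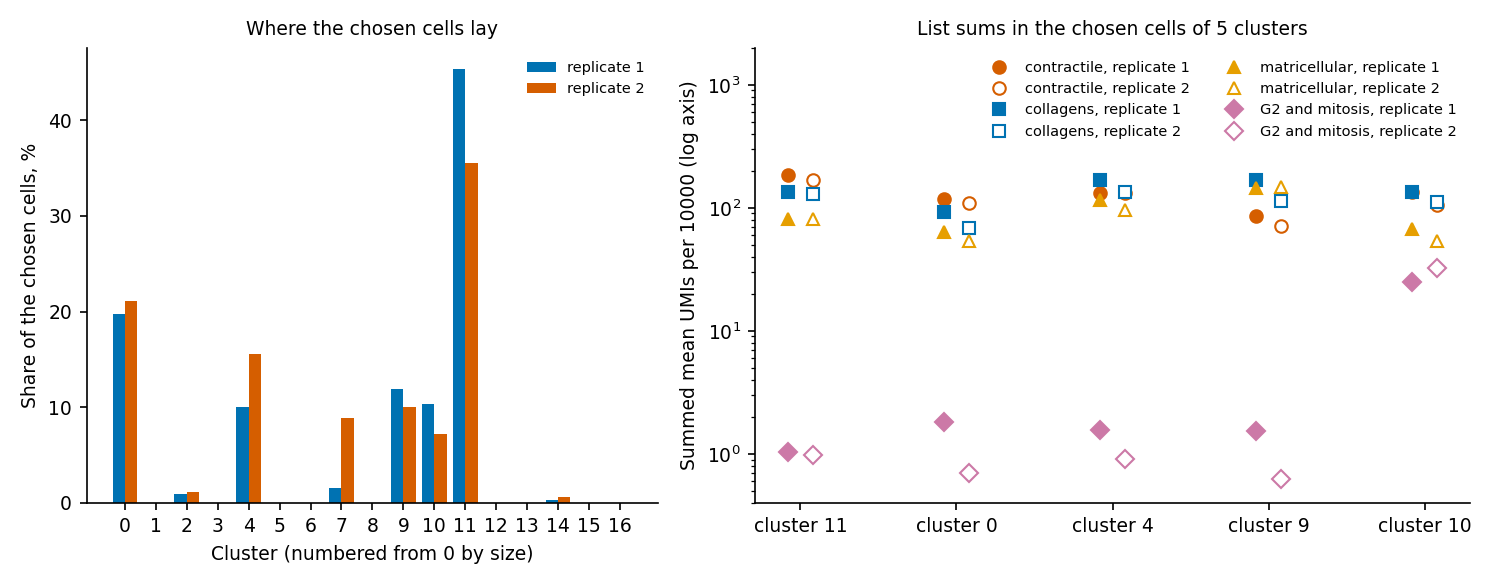
Left, the share of the myofibroblast-like cells (y axis, percent of those of each library) in each of 17 clusters; right, summed mean UMIs per 10000 (log axis) of 4 gene lists in the chosen cells of 5 clusters, by library. Cluster 11 holds 45.3% and 35.6% of the cells and has the highest contractile sum (186.3 and 169.7), and the cells of cluster 10 alone have a high sum for G2 and mitosis (24.8 and 32.4).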

How the data were processed

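The 2 libraries (replicates 1 and 2, 3109 and 3914 cells) were processed by the authors with Cell Ranger 2.1.1 on the mm10 build 1.2.0 and with Seurat 3.1.2, keeping cells with 1500 to 6000 genes and under 9% mitochondrial UMIs, and were deposited as 1 table of natural log values, ln(1 + UMIs per 10000 of a cell), for 17408 genes. These were turned back to UMIs per 10000 and, since all came out whole within 0.01 of a UMI, to UMIs (4753 to 60990 a cell). Neither the labels nor the methods mention doublet removal, and no caller was run. Means over cells per library and set were compared with limma 3.58.1 (R 4.3.3) on log2(mean + 0.1) with library as a term, a mean-variance trend, a mean of at least 0.1, Benjamini-Hochberg adjustment at 0.05 and at least 1.5-fold. ± is the SE of this fit, in which each gene's spread between libraries is drawn towards a value estimated over all genes. The total degrees of freedom were 20.8 in the main fit. They were 10.8, 30.6 and 7260 against the Mmp11 Dcn Sfrp4, Spp1 Mmp13 Col10a1 and Pcp4 Ntrk2 Thbd cells, so ± is mostly this pooled spread. It can be narrower than a gene's own gap between libraries, as for Eln. No count model was run. Whether the libraries came from separate animals is not in the labels, so these tests rest on 2 libraries of unknown origin. An exact sign-flip test over them cannot go below p = 0.5. Cells were clustered with scanpy 1.11.5 and leidenalg 0.10.2 (Python 3.11.15). The fits were tested on simulated data.

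The members and gene lists were chosen with earlier results of these data known. Named are the genes with the 20 largest differences on the higher side, the 15 largest on the lower side and the members of the gene lists. Some genes that this rule names are not reported here. Singled out after their values were seen were the genes described by cluster and Flt1. Intervals are Clopper-Pearson. Alternatives tried are other pseudocounts, filters, scalings, cell numbers, comparison cells, thinning and leaving out each library or score gene.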

Additional observations from a re-analysis of the deposited data

How the results depend on the processing

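The pseudocount mattered most: at 1 the counts of genes higher and lower in the myofibroblast-like cells fell to 192 and 53, and to 100 and 43, 103 and 37, and 220 and 62 against the Mmp11 Dcn Sfrp4, Spp1 Mmp13 Col10a1 and Pcp4 Ntrk2 Thbd cells, since a larger pseudocount shrinks the differences of low genes. At a pseudocount of 1, 11 of 14 contractile, 7 of 13 SRF and MRTF and 4 of 23 TGF-beta genes stayed called higher and the calls for genes of G2, mitosis and S phase were lost. At 0.01 the lower count was 786. Among genes with a mean of at least 0.5 the counts were 306 and 210, with fewer genes tested. Without ribosomal protein genes the lower counts were 1033 and, in the 3 comparisons, 441, 368 and 910, and relative to the median gene 767. Against the next 1500 cells by score the counts were 233 and 100 (contractile 12 of 14, TGF-beta 5 of 24 higher), and Fabp4 (-0.17), Col2a1 (-0.014), Col10a1 (-0.28), Mmp2 (-0.004) and Mmp3 (-0.95) had the other sign, as had Mmp3 with 250 chosen cells (-0.68) and Mmp13 with 1000 (0.90). With the 250 highest cells 463 genes were lower than in the Mmp11 Dcn Sfrp4 cells. The share of cells chosen was 7.56% and 7.88% with z-scores within each library, 5.83% and 2.22% for 250 cells and 20.8% and 11% for 1000 cells. Of 124 called genes named here, 81 kept the call at a pseudocount of 1, 84 of 121 against the next 1500 cells, and 119 or more under every other setting that tested all of them. Scaling without ribosomal protein genes, median centring, the next 1500 cells, the cluster resolutions and leaving out shared barcodes were chosen after seeing the data. The remaining counts over all genes tested stayed within 1.5 times those reported. Without either library no fold could be tested, as no residual degrees of freedom remain. Library was a term of the fit, a replicate block that compares the sets within each library, and without this block 900 genes were higher and 477 lower.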
